A study of Mus musculus with 16 samples.

Results

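The genes described here are 10 members of the BCL2 family of apoptosis regulators, followed in the efferent duct and the caput epididymis of castrated mice. Members were taken by gene symbol, with every probe set that the array annotation gives exactly 1 symbol, whatever its values. This gave 32 probe sets of 9 genes, out of 45101 probe sets on the array and 34958 with 1 symbol. There were 6 probe sets for Mcl1, 5 each for Bcl2 and Bcl2l11, 4 for Bcl2l1, 3 each for Bmf, Bid and Bik, 2 for Bak1 and 1 for Bbc3. The remaining member, Bax, had no probe set annotated with its symbol alone and is not analysed here.

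The study hybridised 16 arrays, 2 from each of 8 groups, and the replicate arrays are not stated to come from separate animals. All mice were adult 129BL/6 males that had surgery and, on day 14 after it, an injection; both tissues were collected 12 h later. In each tissue the groups were castrated mice given 0.015 mg testosterone propionate (TP, a testosterone ester), castrated mice given 0.015 mg estradiol (E2, an estrogen), castrated mice given vehicle (100 µL of 10% ethanol in sesame oil), and sham-operated mice given the same vehicle. Castration removes both the testis as a source of androgen and the fluid and sperm that enter the duct, so castrated against sham does not separate these losses. Where replicates are not separate animals, the p-values measure only the spread between these samples, which may be technical.

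BCL2 family proteins decide whether the outer membrane of the mitochondrion is breached, the committing step of intrinsic apoptosis. The survival proteins BCL2, BCL-XL (gene Bcl2l1) and MCL1 hold the effectors BAX and BAK (gene Bak1) in check, and the BH3-only proteins BIM (gene Bcl2l11), BMF, BID, BIK and PUMA (gene Bbc3) relieve that restraint or activate the effectors. The epididymal epithelium depends on androgen from the testis, and its regression after castration includes a wave of apoptosis; the amount of RNA does not report the cleavage, phosphorylation and turnover that also govern these proteins.

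Promoter sequence is shown for the survival gene and the BH3-only gene with the most probe sets that rose in the castrated caput, Bcl2 and Bcl2l11. Both are the 250 bases before the gene start from RefSeq on build GRCm38.p6, read 5′ to 3′ on the gene's strand: chr1:106714291-106714540, minus strand, for Bcl2, and chr2:128125788-128126037, plus strand, for the first of the 2 windows listed for Bcl2l11. Capitals mark the GC box (GGGCGG or its reverse CCGCCC) in Bcl2 and the forkhead (FOXO) motif GTAAACA in Bcl2l11.
Bcl2: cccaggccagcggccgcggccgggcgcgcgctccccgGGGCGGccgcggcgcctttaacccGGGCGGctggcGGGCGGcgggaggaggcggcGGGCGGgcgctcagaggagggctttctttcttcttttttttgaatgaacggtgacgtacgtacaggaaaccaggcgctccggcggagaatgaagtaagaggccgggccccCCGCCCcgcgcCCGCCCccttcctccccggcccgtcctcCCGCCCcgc
Bcl2l11: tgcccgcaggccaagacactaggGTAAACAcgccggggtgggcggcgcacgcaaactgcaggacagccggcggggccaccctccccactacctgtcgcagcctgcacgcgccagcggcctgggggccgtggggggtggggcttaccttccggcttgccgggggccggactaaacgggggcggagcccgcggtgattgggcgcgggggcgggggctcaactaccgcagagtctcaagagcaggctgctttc

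The Bcl2 window is 74.8% G and C and holds 7 GC boxes, 4 on the gene's strand that begin 213, 189, 178 and 158 bases before the start and 3 on the other strand that begin 48, 37 and 9 bases before it. The Bcl2l11 window is 72.0% G and C, and its GTAAACA begins 227 bases before the start. It also holds 3 GC boxes, which are not marked. The second Bcl2l11 window holds GC boxes but no GTAAACA. Neither motif is particular to these genes: windows of Mcl1, Bax, Bid and Bbc3 also hold a GC box, and a Bbc3 window holds GTAAACA. Of 32817 promoter windows of this length, 32.7% hold a GC box and 3.16% hold GTAAACA on either strand. Both strands of all 16 windows of the 9 members that have one (Bik has none) were also searched for the androgen response element (AGAACA, any 3 bases, TGTTCT), its half-site AGAACA, which lies inside it, and the estrogen response element (GGTCA, any 3 bases, TGACC). These letters occur in 0.00914%, 16.1% and 0.064% of all windows and in none of the members' 16. The matches describe these windows only, and nothing follows from them about a factor.

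The deposited values are linear intensities with the same trimmed mean of 125 on every array, and a probe set's intensity is not comparable with another's. Background is the highest signal among 27 Bacillus control probe sets on the same array. Differences are log2 intensity, castrated or hormone-treated minus its comparison group, from limma fits over all 34958 probe sets with Benjamini-Hochberg adjustment. "Rose" and "fell" are kept for an adjusted p under 0.05. With 2 arrays against 2, no exact permutation test can go below p = 0.333, so calls rest on the variance pooled across probe sets. Groups of 2 in random order would also fail to overlap with that probability, so a lack of overlap below only describes these arrays. The share of all probe sets without overlap was not counted.

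Genes that check the labels were read first. Fkbp5, an androgen-induced chaperone, averaged 1768 ± 72.1 in TP, 488 ± 20.9 in E2, 579.6 ± 31.6 in castrated vehicle and 1628 ± 124 in sham caput (SD, n = 2 each). Lcn8, a lipocalin of caput principal cells, was 46.2 ± 24.9 in castrated and 9159.9 ± 268 in sham caput. Gpx5, an epididymal glutathione peroxidase, was 3247 ± 246 against 8487 ± 140.1 in the same groups. The 2 sham duct arrays had Lcn8 intensities of 15.5 and 1126 and so stand apart in this caput gene. Esr1, the estrogen receptor of the duct epithelium, was 3623 ± 33.3 in castrated and 3801 ± 23.5 in sham duct, against 984 ± 115 and 539 ± 39.9 in caput.

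In the caput, castration was followed by higher Bcl2 on every one of its probe sets, and by smaller rises of probe sets for 3 genes of the opposing, BH3-only class. Of the 32 probe sets, 9 rose and 0 fell in castrated against sham, where 4.37% of all probe sets rose and 3.61% fell. The 9 were all 5 of Bcl2, 2 of 5 for Bcl2l11, 1 of 3 for Bid and 1 of 3 for Bik. Probe sets of 1 gene are not independent, so this count weighs Bcl2 5 times. By the brightest probe set of each gene, 2 of 9 members rose, Bcl2 and Bik, where 5.15% of all genes rose. Across all 32 probe sets the median difference was 0.40 on the log2 scale against 0.06 over all probe sets. Of the 32, 25 were higher, against 53.8% of all probe sets.

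Bcl2, the founding survival member, was read by 5 probe sets on the same arrays, which are not separate results. The brightest, 1457687_at, had intensities of 827 and 923 in castrated caput, against 183 and 199 in sham caput. These are means of 875 ± 68.3 and 191 ± 11.5 (SD, n = 2 each), a difference of 2.20 on the log2 scale (95% interval 1.86 to 2.53, 4.58-fold, limma adjusted p = 0.00598). Probe set 1437122_at had 363 and 388 in castrated caput, against 64.9 and 70.9 in sham caput, and was 5.53-fold higher (adjusted p = 0.00455). On 1440770_at the values were 234 and 220.1 in castrated caput, against 35.1 and 39.0 in sham caput, 6.12-fold apart and the largest difference of any member (adjusted p = 0.00771). Probe sets 1443837_x_at and 1422938_at were 4.2-fold and 3.81-fold higher (adjusted p = 0.0059 and 0.0146). No castrated array overlapped a sham array on any of the 5, which describes these arrays only. The differences ran from 1.93 to 2.61 on the log2 scale.

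**Figure D1:**
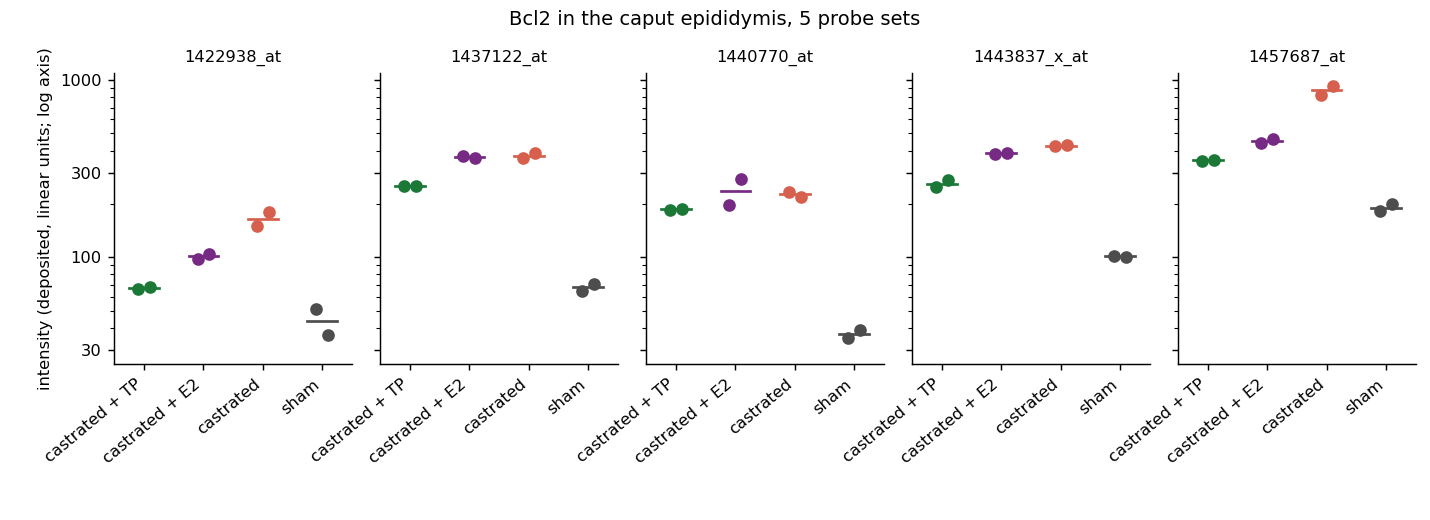
Intensity (log axis) of the 5 Bcl2 probe sets in the caput, 1 point per array and a bar at the mean of the 2 arrays of each group. On every probe set both castrated vehicle arrays lie above both sham arrays, and the TP and E2 arrays lie above the sham arrays too.

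The other survival members did not pass the test. Bcl2l1, which encodes BCL-XL, had 194 and 231 on 1420888_at in castrated caput, against 212 and 177 in sham caput, and the groups overlapped (log2 difference 0.13, interval -0.28 to 0.54, adjusted p = 0.667). Mcl1, a survival protein with a short half-life, had 901 and 852 on 1437527_x_at in castrated caput, against 801 and 891 in sham caput (0.05, interval -0.34 to 0.45, adjusted p = 0.868). All 6 Mcl1 probe sets lay between -0.20 and 0.40, with adjusted p from 0.317 to 0.957. The 3 remaining Bcl2l1 probe sets were dimmer and also not called, and 1426050_at was below background on all caput arrays.

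Bcl2l11, whose product BIM binds every survival protein, was higher on 4 of 5 probe sets. On 1435448_at it had 421 and 453 in castrated caput, against 197 and 243 in sham caput, and it rose 2.0-fold (log2 1.00, interval 0.59 to 1.41, adjusted p = 0.0308). On 1456006_at it had 124 and 119, against 48.4 and 57.0, and rose 2.31-fold (adjusted p = 0.0376). The brightest, 1456005_a_at, had 1002 and 927 in castrated caput, against 394 and 663 in sham caput. It did not overlap but missed the threshold, with the sham arrays far apart (log2 0.92, interval 0.24 to 1.60, adjusted p = 0.103). Probe sets 1435449_at and 1426334_a_at differed by 0.38 and -0.25 (adjusted p = 0.248 and 0.683).

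Bmf, a BH3-only protein held on the cytoskeleton in healthy cells, had 372 and 339 on 1454880_s_at in castrated caput, against 159.6 and 200.5 in sham caput. The groups did not overlap, and the difference of 0.99 (interval 0.42 to 1.56) missed the threshold over all probe sets (adjusted p = 0.0622) and passed it where 1 probe set per gene was fitted. Its 2 dimmer probe sets overlapped between groups, at differences of 0.27 and 0.26.

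Bid, which caspase-8 cleaves to link death receptors to the mitochondrion, had 65.0 and 58.1 on 1448560_at in castrated caput, against 40.1 and 34.0 in sham caput, and rose 1.66-fold (adjusted p = 0.0464). The brighter 1417045_at had 198 and 180.0, against 112 and 131, a difference of 0.64 (interval 0.27 to 1.01, adjusted p = 0.062). Bik, a BH3-only protein of the endoplasmic reticulum, rose 1.69-fold on 1420362_a_at, with 42.7 and 40.8 in castrated caput, against 24.1 and 25.4 in sham caput (adjusted p = 0.049). These calls sit at the edge of the threshold, and Bid 1448560_at and Bik 1420362_a_at both missed it with any of the 4 arrays left out. Bbc3, the p53 target that encodes PUMA, had 72.9 and 82.5 in castrated caput, against 39.8 and 33.7 in sham caput (log2 1.08, interval 0.26 to 1.90, adjusted p = 0.108).

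The effector Bak1 had 28.0 and 24.6 on 1418991_at in castrated caput, against 20.5 and 19.2 in sham caput (log2 0.41, interval -0.61 to 1.42, adjusted p = 0.58). Its second probe set, 1425716_s_at, was below background on both castrated arrays and on 1 sham array, so no fold is given (limma adjusted p = 0.0967).

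**Figure D2:**
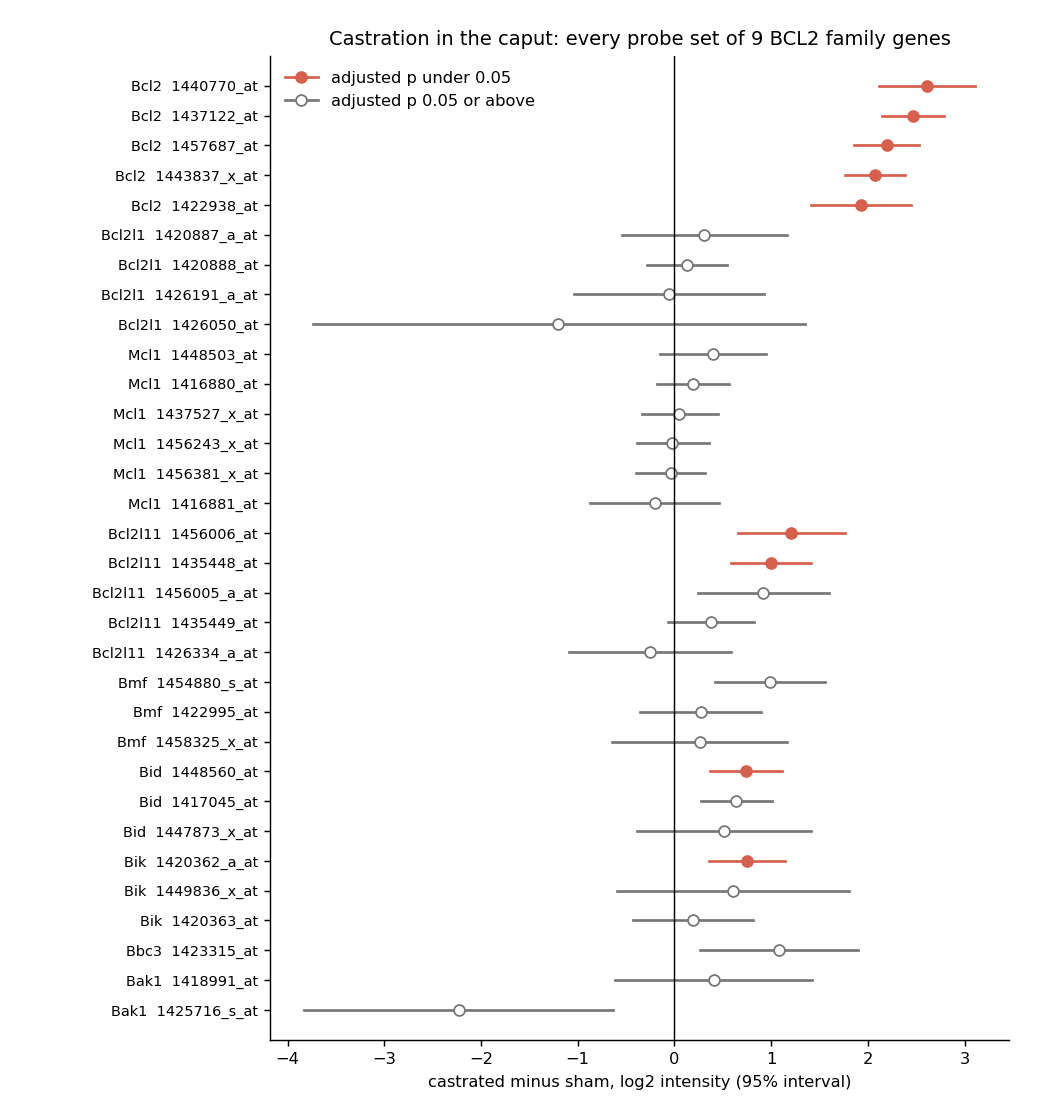
Castrated minus sham caput, log2 intensity (horizontal axis), for all 32 probe sets; lines are 95% intervals and filled points have an adjusted p under 0.05. The 5 Bcl2 probe sets stand at 1.93 to 2.61, to the right of every other member, and the Mcl1 probe sets lie between -0.20 and 0.40.

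Leaving out 1 array lowered the count of 9 sharply, as it did the count of calls over all probe sets. Without sham array 1, only Bcl2 1437122_at passed. Without any one of the other 3 arrays, 3 probe sets passed, Bcl2 1437122_at, 1443837_x_at and 1457687_at; no other member was called in these 4 refits.

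Cell type markers changed over the same comparison, where 5.15% of all genes rose and 4.48% fell by their brightest probe set. A single call in a marker list this short is not read as a change. Of 12 measured caput principal cell genes, 10 fell, with summed intensities of 10445 to 10887 in castrated and 82157 to 82552 in sham caput, and Lcn9 below background in castrated caput. Germ cell genes fell for 6 of 15, with sums of 414 to 495 against 2901 to 9991 and 7 below background in castrated caput; Prm2 was 20.6 ± 4.65 in castrated caput, against 2939 and 546 in sham caput. Lymphocyte genes rose for 3 of 15 (Ptprc, Igha and Jchain), with sums of 934 to 2004 against 322 to 328, while Cd4 and Cd79a were below background in castrated caput and Cd2 and Cd4 in sham caput. Macrophage genes rose for 1 of 15 (Cd14; sums 4779 to 5688 against 4111 to 4115) and basal cell genes for 1 of 7 (Dst; 2079 to 2167 against 1735 to 1745). Of 12 smooth muscle and stroma genes Dcn rose and Col1a2 fell, with sums of 15249 to 15489.7 against 13013 to 13779. Of 12 genes of the efferent duct epithelium Foxj1 rose and Car2 and Slc4a4 fell in the caput. The ratio of 3′ to 5′ actin probe sets, a sign of RNA length, was on the log2 scale 1.08 to 1.20 in TP caput, 0.88 to 1.02 in E2, 0.79 to 1.02 in castrated vehicle and 0.64 to 0.75 in sham. In such bulk tissue fewer cells of a type and less RNA per cell cannot be told apart. The part of these shifts in the Bcl2 family differences was not tested.

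TP 12 h before collection was set against castrated vehicle to ask which members respond to androgen. Of the 32 probe sets, 0 rose and 2 fell, where 0.378% of all probe sets rose and 0.269% fell. The 2 were 1 of Bcl2 and 1 of Bid. The median over the 32 was -0.45 against -0.065 over all probe sets. Of the 32, 7 were higher in TP, against 44.7% of all probe sets. This comparison and castrated against sham share the castrated vehicle arrays, so opposite signs in them are not independent.

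Bcl2 1457687_at had 348 and 356 in TP caput, against 827 and 923 in castrated vehicle caput, and fell by 1.31 on the log2 scale (interval -1.65 to -0.97, 2.48-fold, adjusted p = 0.0381). Every Bcl2 probe set was lower in TP, but to unequal degrees. On 1422938_at the values were 66.3 and 68.2 in TP, against 150.2 and 179.6 in castrated vehicle (-1.29, adjusted p = 0.0703). On 1440770_at they were 186 and 188, against 234 and 220.1 (-0.27, adjusted p = 0.524). The remaining pair, 1443837_x_at and 1437122_at, differed by -0.71 and -0.57 (adjusted p = 0.0752 and 0.117).

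Bid 1448560_at had 23.7 and 23.4 in TP caput, against 65.0 and 58.1 in castrated vehicle caput, and fell by 1.38 (interval -1.75 to -1.01, adjusted p = 0.0419). Its level in TP was below that of both sham arrays. The brighter 1417045_at had 111 and 103 in TP, against 198 and 180.0 in castrated vehicle (-0.82, adjusted p = 0.0812). Both calls of this comparison, Bcl2 1457687_at and Bid 1448560_at, were lost when any 1 of the 4 arrays was left out. So were the calls over all probe sets, and the differences were -1.39 to -1.23 for Bcl2 and -1.46 to -1.30 for Bid. Markers moved in the same comparison, where 93 of all 18194 genes rose by their brightest probe set and 45.5% were higher. Of 12 principal cell genes 3 rose, with sums of 15522 to 21659.6 in TP and 10445 to 10887 in castrated vehicle caput. Lymphocyte genes were lower for 12 of 15, with none called (median -0.39, sums 838 to 1144 in TP and 934 to 2004 in castrated vehicle). Their part in the Bcl2 and Bid falls was not tested.

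Among the other BH3-only genes, the 5 Bcl2l11 probe sets were all lower in TP, at -1.05 to -0.43, and none passed (adjusted p 0.105 to 0.29). Bmf 1454880_s_at had 275 and 196 in TP, against 372 and 339 in castrated vehicle (-0.61, adjusted p = 0.254). Bbc3 had 33.4 and 41.9, against 72.9 and 82.5 (-1.05, adjusted p = 0.193). These groups did not overlap for Bmf or Bbc3, and the differences missed the threshold. Bik 1420362_a_at and Bak1 1418991_at differed by -0.15 and 0.48 (adjusted p = 0.665 and 0.59). Of the survival members, Bcl2l1 1420888_at was higher, with 282 and 286 in TP, against 194 and 231 in castrated vehicle (0.42, interval 0.01 to 0.83, adjusted p = 0.269), and Mcl1 1437527_x_at differed by -0.08 (adjusted p = 0.841).

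**Figure D3:**
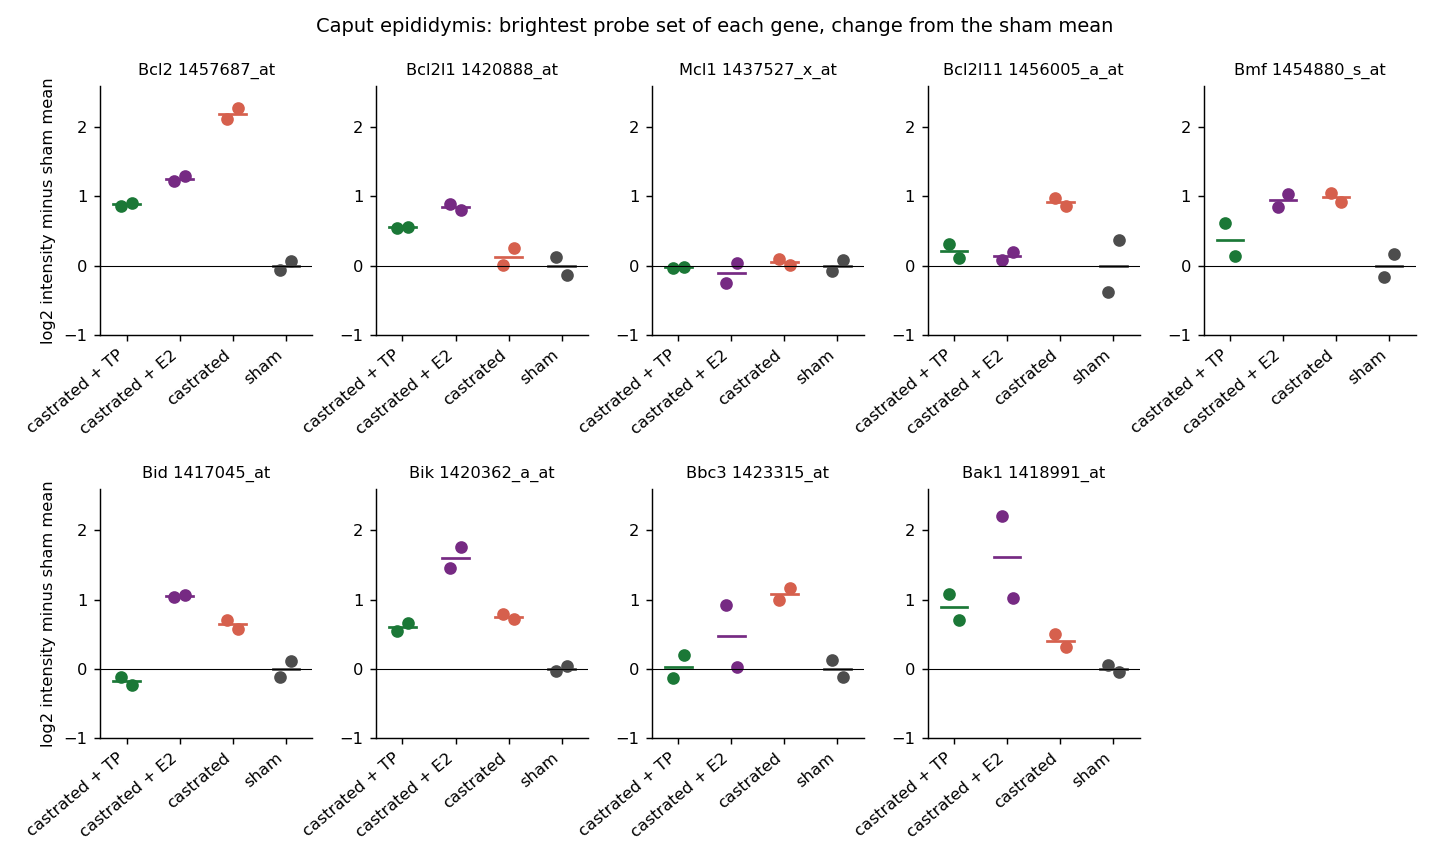
Caput log2 intensity minus the sham mean for the brightest probe set of each of the 9 genes, 1 point per array and a bar at the group mean. Bcl2 lies highest in castrated vehicle (2.12 and 2.28), with E2 (1.22 and 1.30) and TP (0.87 and 0.90) between it and sham, while Mcl1 stays between -0.25 and 0.09 in the castrated groups.

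Set against sham in turn, the 5 Bcl2 probe sets averaged 0.64 to 2.34 higher in TP caput on the log2 scale, 1.23 to 2.66 higher in E2 caput and 1.93 to 2.61 higher in castrated vehicle caput. The lowest of the TP values was 1422938_at and the highest 1440770_at, which averaged 187 in TP and 37.1 in sham. So the probe sets of this one gene disagree on how far the level in TP stood from that in sham. By 1457687_at the levels ran castrated vehicle, E2, TP, sham from high to low, with no overlap between neighbours.

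E2 at the same dose and time gave no call in the caput: 0 of 32 probe sets and 0% of all probe sets passed in either direction, with the smallest limma adjusted p over all probe sets at 0.0998. At an unadjusted limma p under 0.05 there were 13 of the 32, 7 of them lower in E2, and 4752 (13.6%) of all. Bcl2 1457687_at had 444 and 468 in E2 caput, against 827 and 923 in castrated vehicle caput (-0.94, interval -1.28 to -0.60, adjusted p = 0.113). The other Bcl2 probe sets ran from -0.70 on 1422938_at to 0.05 on 1440770_at. Bcl2l1 1420888_at had 360.0 and 339 in E2, against 194 and 231 in castrated vehicle (0.72, interval 0.31 to 1.13, adjusted p = 0.191). Bik 1420362_a_at had 68.1 and 83.6, against 42.7 and 40.8 (0.86, interval 0.47 to 1.25, adjusted p = 0.153). On these 2 probe sets both E2 arrays lay above every other caput array; on Bcl2l1 1420887_a_at E2 array 2, at 67.7, lay below TP array 1, at 80.3, and castrated vehicle array 1, at 71.2. The 5 Bcl2l11 probe sets were lower in E2 by 0.51 to 0.78 (adjusted p 0.234 to 0.414). Bid 1417045_at, Bmf 1454880_s_at and Mcl1 1437527_x_at differed by 0.41, -0.04 and -0.16.

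The 2 hormones, a testosterone ester and an estradiol given at equal mass, were compared directly over the 32 probe sets. None rose and 2 fell in TP against E2, both of Bid, where 0.389% of all probe sets rose and 0.335% fell; p-values were adjusted over all 34958. Bid 1417045_at had 111 and 103 in TP caput, against 249.6 and 254 in E2 caput, and fell by 1.23 (interval -1.60 to -0.86, adjusted p = 0.0458). Bid 1448560_at had 23.7 and 23.4, against 63.2 and 65.5, and fell by 1.45 (adjusted p = 0.0359). The third Bid probe set, 1447873_x_at, had 14.0 and 14.4 in TP, against 16.4 and 28.4 in E2, and was not called. Both Bid calls were lost when any 1 of the 4 arrays was left out, and so were the calls over all probe sets. The differences were then -1.29 to -1.18 for 1417045_at and -1.48 to -1.42 for 1448560_at.

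For the other members the hormones were not distinguished. Bik 1420362_a_at differed by -1.01 (adjusted p = 0.0661), the 5 Bcl2 probe sets by -0.59 to -0.32 (adjusted p 0.13 to 0.517), Bcl2l1 1420888_at by -0.30 (adjusted p = 0.468) and Bmf 1454880_s_at by -0.57 (adjusted p = 0.335). Bcl2l11 1456005_a_at differed by 0.07, with an interval of -0.61 to 0.75 that includes changes of either sign. Marker sums moved as well: principal cell genes summed to 15522 to 21659.6 in TP caput and 8164 to 11526 in E2 caput, and lymphocyte genes to 838 to 1144 and 1255 to 1645. The part of this in the Bid difference was not tested.

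A balance of the family was read per array as the mean log2 level, from the sham mean, of the brightest probe sets of the 3 survival genes minus that of the 6 opposing genes. It was 0.07 and 0.22 in TP caput, -0.47 and -0.14 in E2 caput, -0.10 and 0.09 in castrated vehicle caput, and 0.08 and -0.08 in sham caput. Castrated vehicle and sham overlapped, and both means lay above sham: the survival mean was 0.74 and 0.85 in castrated vehicle, and the opposing mean 0.84 and 0.76. With Bcl2 left out the same measure was -0.13 and 0.01 in TP, -0.77 and -0.43 in E2, -0.79 and -0.63 in castrated vehicle, and 0.11 and -0.11 in sham. Bcl2 alone minus Bcl2l11 was 0.56 and 0.78 in TP, 1.14 and 1.10 in E2, 1.14 and 1.42 in castrated vehicle, and 0.31 and -0.31 in sham. Without Bcl2 both castrated vehicle arrays thus lay below both sham arrays, and with it they overlapped sham. Bcl2 had the largest castrated minus sham difference of the 3 survival genes, so leaving it out had to lower the measure there. Equal weights for 9 genes are a choice with no protein data behind it.

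In the efferent duct none of the 32 probe sets passed in castrated against sham, where 0.0772% of all probe sets rose and 0.129% fell by limma. At an unadjusted limma p under 0.05 there were 8 of the 32, 3 of them lower in castrated, and 4933 (14.1%) of all. The median was 0.25 against 0.034 over all probe sets. Bcl2 1457687_at had 281 and 125 in castrated duct, against 138 and 153 in sham duct, so the castrated arrays lay on both sides of sham (0.37, interval -0.72 to 1.45, adjusted p = 0.731). Bcl2 1440770_at had 129 and 115, against 50.8 and 38.8 (1.46, adjusted p = 0.102). Bid 1417045_at was lower, with 93.6 and 83.3 in castrated duct, against 185 and 175 in sham duct (-1.03, interval -1.51 to -0.54, adjusted p = 0.128). The dimmer Bid 1447873_x_at was higher instead, with 33.1 and 25.1 in castrated duct, against 10.4 and 10.3 in sham duct, where 1 array was below background (1.48, interval 0.61 to 2.35, adjusted p = 0.177). Mcl1 1437527_x_at had 1514 and 1854, against 1450.2 and 1698 (0.09, adjusted p = 0.871). Bmf 1454880_s_at had 27.6 and 44.6, against 17.7 and 15.9 (1.06, adjusted p = 0.292). Bbc3 was below background on all 4 of these arrays, so no fold is given.

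Cell type markers moved in the duct as well. Caput principal cell genes summed to 91.69 to 578 in castrated duct and 5592 to 10384 in sham duct. Of these 12 genes 1 was called lower, where 0.214% of all genes were called, and 5 were below background in castrated duct. Macrophage genes summed to 5969 to 6893 in castrated duct and 9767 to 11007 in sham duct, and lymphocyte genes to 1100.4 to 1991 and 593 to 865; none of either was called. Efferent duct epithelium genes summed to 7357 to 8499.9 in castrated duct and 10141 to 10510.5 in sham duct, also with no call. The part of these in the duct differences and in the comparison of tissues was not tested.

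**Figure D4:**
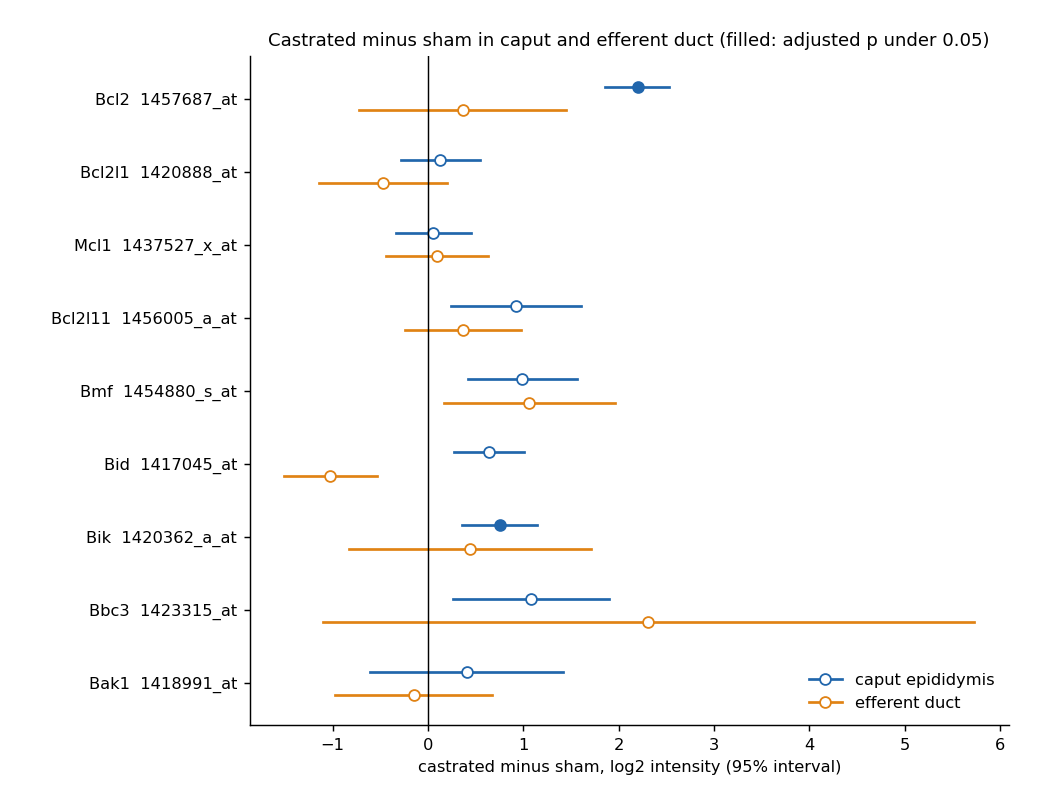
Castrated minus sham, log2 intensity, for the brightest probe set of each gene, in the caput (blue) and the efferent duct (orange); lines are 95% intervals and filled points have an adjusted p under 0.05. Bcl2 stands at 2.20 in the caput and 0.37 in the duct, and Bid at 0.64 and -1.03.

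Whether the tissues differ in their response to castration was tested as an interaction over all 16 arrays. In this test 3 of the 32 probe sets were higher in the caput and 0 lower, where 0.947% of all probe sets were higher and 0.724% lower. Bcl2 1443837_x_at changed by 1.53 more in the caput (interval 1.08 to 1.97, adjusted p = 0.0123); it had 423 and 428 in castrated against 102 and 101 in sham caput, and 59.1 and 55.3 against 39.6 and 38.8 in duct. Bid 1417045_at changed by 1.67 more (interval 1.19 to 2.15, adjusted p = 0.0123), higher in castrated caput and lower in castrated duct. The third call, Bid 1448560_at, has no measured duct side, since all its 4 duct values were below background. Its fitted difference of 4.61 was 0.74 with intensities under 16 set to 16, and the call was lost (adjusted p = 0.108). The remaining Bid probe set, 1447873_x_at, went the other way without passing (-0.97, interval -2.12 to 0.18, adjusted p = 0.379). The Bcl2 1443837_x_at call was lost without castrated caput array 2 (1.52, adjusted p = 0.0512). The other 4 Bcl2 probe sets gave 1.16 to 2.12 (adjusted p 0.0874 to 0.134) and Bcl2l11 1435448_at 1.48 (adjusted p = 0.079). Bmf 1454880_s_at gave -0.07 and Mcl1 1437527_x_at -0.04. The tissues were labelled from 10 µg of RNA in caput and 50 ng with another kit in duct, and that difference between tissues cannot be told apart from the tissue.

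The duct arrays fall into hormone and vehicle sets of unlike quality, which bears on every hormone comparison in this tissue. The 3′ to 5′ actin ratio was 0.91 to 1.93 on the log2 scale in the 4 hormone arrays and 3.11 to 3.87 in the 4 vehicle arrays. Background was 2.33 to 3.97 against 8.09 to 14.3, and 85.4% to 89.0% of probe sets lay above it against 65.5% to 74.3%. The brightest intensity on an array was 3218 to 4517 against 14456 to 19967. Array set and hormone cannot be told apart here.

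In duct TP against castrated vehicle, 3 of the 32 probe sets rose and 4 fell, where 17.8% of all probe sets rose and 10.4% fell. In E2 against castrated vehicle, 4 rose and 1 fell, where 15.4% rose and 7.84% fell. The rises in both hormones and the falls in E2 were below these shares, and the falls in TP slightly above. Nothing about the members is read from such small counts. The median of all probe sets was itself shifted, by 0.149 in TP and 0.236 in E2, while that of the members was 0.02 and 0.26. Quantile normalization removed the shift (-0.03 and -0.04) and moved the share of higher among all calls to 47.2% in TP and 47.5% in E2, against 63.0% and 66.2% with the deposited scaling. Among the members it left 2 rises and 4 falls in TP, and 1 rise and 4 falls in E2.

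Bid 1417045_at had 258 and 238 in TP duct, 193 and 215 in E2 duct, and 93.6 and 83.3 in castrated vehicle duct. It rose 2.81-fold in TP (adjusted p = 0.00944) and 2.31-fold in E2 (adjusted p = 0.0152), the second being lost under quantile normalization (0.71 on the log2 scale, adjusted p = 0.0637). Both hormone groups were also above sham, at 185 and 175. Bid 1448560_at was below background in castrated vehicle duct and at least 1.31-fold higher in TP and at least 1.59-fold higher in E2 (adjusted p = 0.00881 and 0.0111). Those p-values rest on castrated values of 0.361 and 0.452, far under background, and with intensities under 16 set to 16 both calls were lost (0.17 and 0.25, adjusted p = 0.694 and 0.501). Bid 1447873_x_at fell in both hormones, with 6.75 and 7.29 in TP and 7.9 and 4.2 in E2, against 33.1 and 25.1 in castrated vehicle (-2.04 and -2.32, adjusted p = 0.0144 and 0.0135). With intensities under 16 set to 16 the 1447873_x_at difference was -0.85 in both hormones, and both calls held. Bid 1417045_at and the dimmer 1447873_x_at thus disagree in direction in the duct, while 1448560_at has no measured castrated side.

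Bmf 1454880_s_at had 89.7 and 123 in E2 duct, against 27.6 and 44.6 in castrated vehicle duct, and rose 2.99-fold (adjusted p = 0.0319); in TP it had 61.4 and 40.2. Bmf 1458325_x_at rose in both hormones, 1.97-fold in TP and 2.31-fold in E2 (adjusted p = 0.0255 and 0.0179). The 3 Bmf rises missed the threshold under quantile normalization (adjusted p = 0.0908 for 1454880_s_at in E2, and 0.129 in TP and 0.0679 in E2 for 1458325_x_at). In TP, Bmf 1422995_at, Bcl2 1440770_at and Bcl2l11 1435449_at fell (-1.91, -1.36 and -1.70, with limma adjusted p = 0.033, 0.0151 and 0.0399). However, Bmf 1422995_at was below background on 1 of the 2 arrays of each group. With intensities under 16 set to 16 its difference was 0 and the call was lost, and the Bcl2l11 1435449_at difference was -0.43. Mcl1 1437527_x_at had 1062 and 1060.0 in TP and 1142 and 1010.5 in E2, against 1514 and 1854 in castrated vehicle (-0.66 and -0.64, adjusted p = 0.0721 and 0.0863).

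Without TP array 1 the member calls were lost in duct TP against castrated vehicle, as they were in duct E2 without either E2 array. The calls over all probe sets were lost in the same refits. Lymphocyte genes summed to 3087 to 3402 in TP, 2402 to 3177 in E2, 1100.4 to 1991 in castrated vehicle and 593 to 865 in sham duct. Macrophage genes summed to 8520 to 11958, 8325 to 12157, 5969 to 6893 and 9767 to 11007 in the same order. Of the 15 macrophage genes, 9 rose in TP and 6 in E2, where 20.8% and 17.2% of all genes rose. Their part in the member differences was not tested. TP against E2 gave 0 calls among the members and 0% of all probe sets in duct (smallest limma adjusted p 0.142). An unadjusted limma p under 0.05 was found for 5 member probe sets, 3 lower in TP, and 2365 (6.77%) of all. Bmf 1454880_s_at differed by -1.08 and Bid 1417045_at by 0.28.

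**Figure D5:**
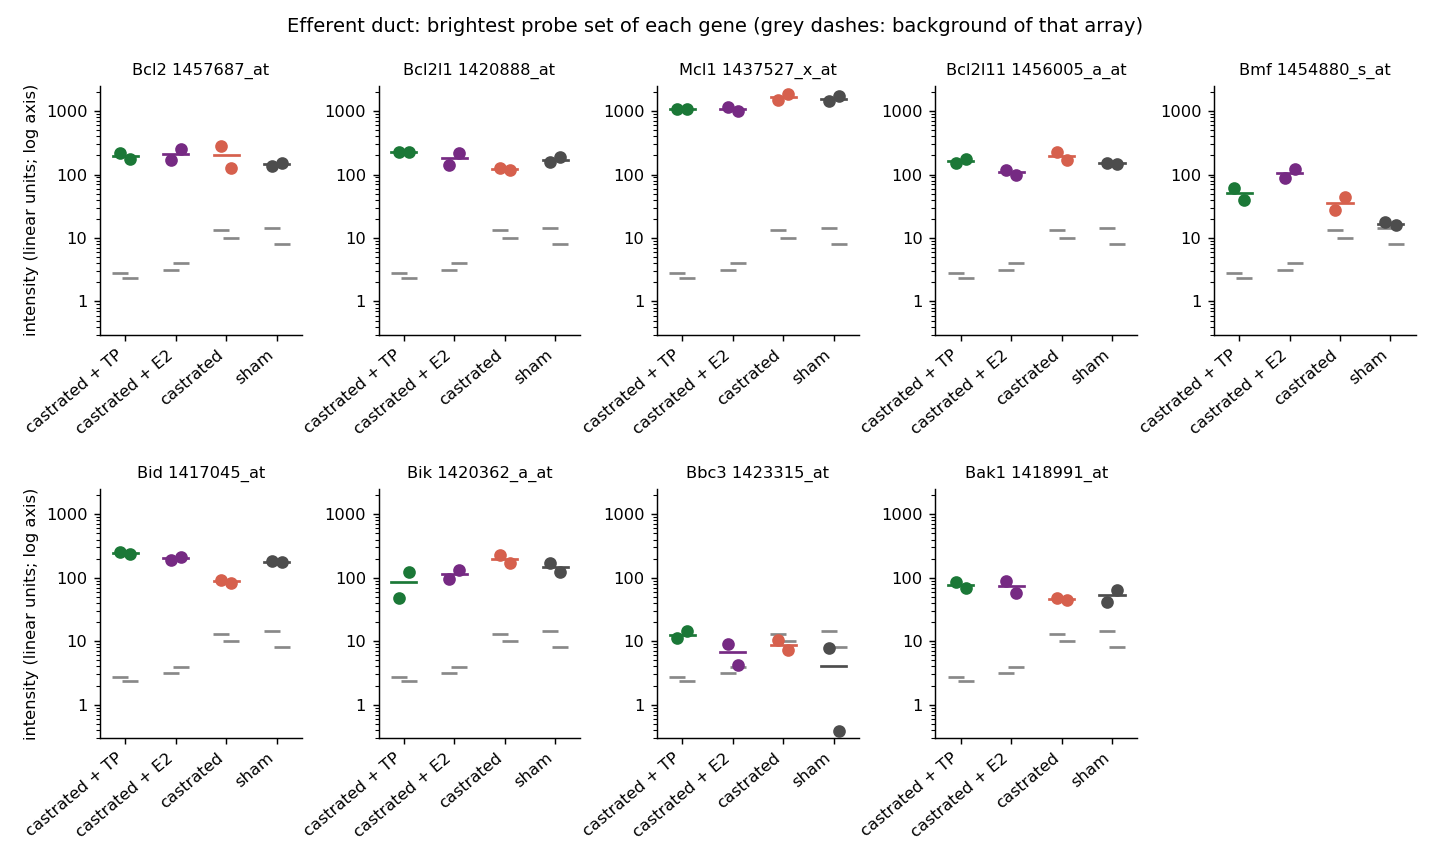
Intensity (log axis) of the brightest probe set of each of the 9 genes in the efferent duct, 1 point per array and a bar at the group mean, with a grey dash at that array's background. Bid lies at 193 to 258 in the hormone arrays and 83.3 to 93.6 in castrated vehicle, and Bbc3 lies under background on all 4 vehicle arrays.

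Other genes of the pathway were each read by their brightest probe set in castrated against sham caput, where 5.15% of all genes rose and 4.48% fell. Of 14 other BCL2 relatives 0 rose and 1 fell, with a median of -0.11 against 0.06 over all genes. The one was Bcl2l15, a BCL2-like gene, at 837 ± 104 in castrated and 2395 ± 33.1 in sham caput (SD, n = 2 each), 2.87-fold lower (adjusted p = 0.0133). In the caspase cascade 1 of 22 rose and 2 fell (median 0.33). Xiap, an inhibitor of caspases, was at 566 ± 38.4 against 312 ± 3.1 and rose 1.81-fold (adjusted p = 0.0286). Cycs, cytochrome c, was at 1198 ± 72.0 against 2642 ± 203 and fell 2.2-fold (adjusted p = 0.0203), and the mitochondrial channel Vdac2 fell 1.55-fold (1877 ± 34.3 against 2907 ± 56.0, adjusted p = 0.0448).

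None of 15 death receptor genes was called (median 0.03). Among 14 p53 targets 1 rose (median 0.12), Trp53inp1, 1.92-fold at 791 ± 114 in castrated and 409 ± 23.8 in sham caput (adjusted p = 0.043). Of 24 regulators of the family 20 were higher in castrated caput, against 54.0% of all genes, with a median of 0.32 against 0.06. Past the threshold, 2 rose and 0 fell. They were Foxo1, a forkhead factor that activates Bcl2l11 in other cells, at 406 ± 25.8 against 203 ± 13.4 (2.0-fold, adjusted p = 0.0201), and the survival kinase Pim1 at 132 ± 20.8 against 53.2 ± 3.0 (2.48-fold, adjusted p = 0.0258). Of 14 genes known from androgen withdrawal in other organs, Tgfb3 rose 2.15-fold (157 ± 33.6 against 72.2 ± 6.21, adjusted p = 0.0376) and the protease Mmp7 fell 9.88-fold (39.6 ± 12.7 against 382 ± 31.6, adjusted p = 0.0188), with a median of 0.33. None of these lists held a call in caput TP against castrated vehicle, E2 against castrated vehicle or TP against E2, where limma called 0.742%, 0% and 0.89% of all genes, or in castrated against sham duct, where it called 0.214%.

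For the same lists in duct TP against castrated vehicle, where 20.8% of all genes rose and 10.8% fell, 1 rose and 1 fell of 14 other BCL2 relatives, 7 and 2 of 22 caspase cascade genes, 3 and 2 of 15 death receptor genes, 4 and 1 of 14 p53 targets, 6 and 3 of 24 regulators, and 4 and 1 of 14 regression genes. In E2, where 17.2% rose and 9.05% fell, the counts were 0 and 1, 6 and 2, 4 and 0, 3 and 1, 7 and 3, and 3 and 1.

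Genes whose caput pattern was most like those of Bcl2 and Bmf were found by Pearson correlation of log2 intensity over the 8 caput arrays, among 14600 genes above background on at least 4 of them. For Bcl2 they were Bdh2 (0.9957), Nr1d2 (0.9916), Dennd2d (0.9908), Wsb1 (0.9904) and Hdgfl3 (0.9903). Wsb1 had the widest range, at 506 in TP, 879.6 in E2, 1746 in castrated vehicle and 252 in sham caput. The other Bcl2 probe sets correlated with the brightest at 0.8273 to 0.9702, below these 5 genes. For Bmf they were Lrsam1 (0.9914), Pcdh7 (0.991), Wnt5a (0.9815), Wrn (0.9812) and Uri1 (0.9804), while its own other probe sets reached 0.4221 and -0.1043. With 8 arrays that share their 4 groups and so many genes compared, these likenesses are a description only.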

How the data were processed

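RNA from 16 tissue samples was labelled and hybridised to mouse expression arrays, 1 array per sample, with kits that differed between tissues per the labels' protocols. The deposited values are linear intensity per probe set. The submitters' processing notes name RMA, with no version, but every deposited array has a mean of 125 after the outer 2% at each end is trimmed, so the values carry a global scaling. They were converted to log2 with no pseudocount. Gene symbols came from the platform annotation: 34958 probe sets had 1 symbol and were tested. Another 932 had several and 9211 none, and both kinds were left out. Names ending in _s_at or _x_at mark probes that can read related transcripts.

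Each tissue was fitted alone (8 arrays, 4 groups, group the only term) with limma 3.58.1 in R 4.3.3, and the interaction over all 16 arrays; Python 3.11.15 (pandas 2.3.3, matplotlib 3.10.9) served for summaries and drawing. The fit was tested on simulated data. All members were described with every probe set; lists used the brightest probe set per gene, naming up to 4 called genes per list by size of difference in castrated against sham caput, and up to 2 elsewhere. In the duct hormone comparisons only counts are given for the lists. A probe set below background on all arrays of a group has only a bound. The bound is the brighter group's mean over the dimmer group's, with each dim array at the higher of its own value and its background. The members and lists were chosen with earlier results of these data known. Array number limits precision. Same-numbered arrays did not deviate together (correlations -0.04 to 0.04). Alternatives were quantile normalization, a filter on dim probe sets, a floor, a variance trend, a replicate block, 1 fit of all arrays, 1 probe set per gene and leaving out each array.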

Additional observations from a re-analysis of the deposited data

Results flagged for a closer look

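For 3 probe sets the change after castration differed between the caput and the duct in the test of the difference itself, over all 16 arrays with limma. Bcl2 1443837_x_at changed by 1.53 more in the caput on the log2 scale, and Bid 1417045_at by 1.67 more. Bid 1448560_at gave 4.61, but all its vehicle duct values were below background, and with intensities under 16 set to 16 it was 0.74 and no longer called (adjusted p = 0.108). With each of the 8 vehicle arrays left out in turn, the value was 1.48 to 1.57 for Bcl2 1443837_x_at and 1.55 to 1.78 for Bid 1417045_at. The Bcl2 call was lost without castrated caput array 2 (adjusted p = 0.0512), and the Bid 1417045_at call held in all 8. All 3 calls were lost with the replicate number as a block, where no probe set on the array was called.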

How the results depend on the processing

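Of the 28 member calls over all comparisons, 282 refits gave 173 past the threshold in the same direction, 109 short of it and 0 reversed. Counts below are member probe sets past the threshold. Calls over all probe sets moved under the same settings. With all arrays kept they ran from 1 to 2807 in caput TP against castrated vehicle (226 in the main fit). They ran from 0 to 1295 in E2 against castrated vehicle (0) and 0 to 1996 in TP against E2 (253). In the duct they were 0 to 1337 in castrated against sham (72), 6644 to 13534 in TP (9877) and 5678 to 12122 in E2 (8114). The interaction gave 0 to 2199 (584). In castrated against sham caput the count of 9 became 5 with the replicate block, all of Bcl2, and 1 to 3 with an array left out; fitted per gene, the count of 2 genes became 4 (Bcl2, Bid, Bik and Bmf). Over all probe sets that comparison gave 2788 calls, and 86 to 6719 across settings. Without the 40% dimmest probe sets the counts became 8 for caput TP against castrated vehicle, 3 for E2 against castrated vehicle, 5 for TP against E2, 2 for duct castrated against sham, 10 for duct E2 and 6 for the interaction. With intensities under 16 set to 16 they were 6, 1, 5, 1, 10 and 5, and with an intensity trend 7, 3, 4, 3, 12 and 6, with 11 for duct TP. The replicate block left 0 in caput TP against castrated vehicle, in TP against E2 and in the interaction, and changed no count of the duct by over 1.5 times; the numbers do not pair the samples. With all 16 arrays in 1 fit the counts were 1 for caput TP against E2, 3 for duct castrated against sham, 15 for duct TP and 12 for duct E2. Fitted per gene, caput TP against E2 had 2 genes (Bid and Bik) where the main count was 1, and duct TP had 3 (Bcl2l1, Bid and Mcl1) where it was 1. With an array left out, no call stood in the caput hormone comparisons or duct castrated against sham, among the members or over all probe sets. In duct TP, duct E2 and the interaction, member calls and calls over all probe sets both varied with the array left out. Uncalled castrated minus sham differences near 0 changed sign with an array left out: caput Mcl1 1437527_x_at ran from -0.02 to 0.13, duct Bak1 1418991_at from -0.47 to 0.17, duct Mcl1 1437527_x_at from -0.05 to 0.24 (-0.02 without sham array 1) and duct Bcl2 1457687_at from -0.21 to 0.95. The cause of these changes was not tested, beyond fewer arrays or probe sets in the fit. Bcl2 1437122_at in castrated against sham caput kept its call under every setting (largest adjusted p 0.0455). Signal near background limits Bbc3, Bak1 1425716_s_at and Bid 1448560_at in the duct.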
